A study of Bos taurus with 15 samples.

Results

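Bovine oocytes vitrified in liquid helium were set against oocytes vitrified in liquid nitrogen, both at 5.6 M cryoprotective agent, to ask how the coolant bears on the oocyte's mRNA when the concentration is held. The comparison was chosen by coolant and concentration alone and rests on 6 of the 15 libraries of the series, 3 helium libraries (numbered 3, 4 and 5 in the labels) and 3 nitrogen libraries (1, 2 and 3). The other 9 libraries were 3 of helium at 6.6 M, 3 of nitrogen at 6.6 M and 3 of fresh oocytes, which had not been vitrified. All groups, the fresh one included, were described by the labels as ovary-derived oocytes matured in vitro in a medium with gonadotropins, serum and follicular fluid, and stripped of cumulus cells with hyaluronidase afterwards, whereas the series title calls the oocytes immature, so the stage is not settled here. RNA was taken up from single cells and amplified to cDNA before sequencing. Breed, age of the donors, the cryoprotectants and the number of oocytes per library were not given in the sources used here. Nothing in the labels says that the libraries of a group came from separate animals or cultures, so each p-value measures a spread between libraries only, which may be technical. The main gene-level fits took that spread from the libraries of all 5 groups, the fresh one included, and not from the 6 compared libraries alone. Values are relative to a library's total, and fewer cells in a library and less RNA per cell cannot be told apart.

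Vitrification cools a cell in a concentrated cryoprotectant so fast that its water sets as a glass rather than as ice. Liquid helium is far colder than liquid nitrogen, and a colder coolant is used with the aim of faster cooling and of a lower cryoprotectant dose, since cryoprotectants are themselves toxic and osmotically harmful. A full-grown oocyte makes almost no new RNA until the embryonic genome is activated, and it lives on stored maternal transcripts, a large stock of mitochondria and a spindle that is sensitive to cold.

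Depth went with the coolant at this concentration. The helium libraries held 8569618, 7478621 and 6346848 counts and the nitrogen libraries 2333545, 2291349 and 1790900, so the helium mean was 3.49 times the nitrogen mean. Depth and coolant therefore cannot be told apart within these 6 libraries. At 6.6 M all 3 helium libraries were deep as well (6906940 to 7330690 counts), nitrogen libraries 1 and 2 were shallow (1987931 and 2613014), and nitrogen library 3 was deep, with 7392972 counts. That library is the 1 deep nitrogen library of the series, and its values are given beside the results below. Its use as a yardstick was chosen after the data had been seen. No library repeated another of its group (chi-square over its degrees of freedom 6.23 to 25.6).

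The libraries carried the transcripts of an oocyte. The summed level of 11 oocyte markers was 7032, 7644 and 7151 CPM (a gene's count scaled to a library total of 1000000) with helium and 4556, 5541 and 5197 with nitrogen, and it was 4790 in the deep nitrogen 6.6 M library. All helium sums lay above all nitrogen sums. Of 20 markers of cumulus and granulosa cells, which surround the oocyte, FSHR, FOXL2 and NR5A1 had no count in any of the 6 libraries. The summed level of these 20 was 411 to 462 CPM with helium and 427 to 446 with nitrogen, most of it from STAR, HAS2 and PTGS2. TNFAIP6, made by expanding cumulus cells, stood at 8.52, 0.134 and 6.62 CPM in helium libraries 3, 4 and 5 and at 0, 0.873 and 0 with nitrogen. TIMP1, an inhibitor of matrix proteases, followed the same libraries with 11.3, 0.936 and 12.9 CPM against 0, 1.31 and 0. Other markers of the list lay on either side. SERPINE2 stood at 41.2, 29.8 and 23.95 CPM with helium against 19.7, 22.7 and 21.2 with nitrogen. INHBA lay the other way, at 0.584, 0.267 and 0 CPM against 0.857, 0.873 and 2.23. PTX3 overlapped, at 2.33, 2.41 and 0.945 CPM against 3, 1.31 and 4.47. Over the wider list of 34 cumulus and granulosa genes in the table the sum was 444 ± 29.5 CPM (SD, n = 3) with helium and 447 ± 5.86 with nitrogen, a difference of -2.97 (exact permutation test, two-sided, p = 1). Markers of blood, endothelial and immune cells summed to at most 7.35 CPM and those of stroma and theca to at most 7.24, with HBB, CD14, TYROBP, LYZ, CDH5, COL3A1 and CYP17A1 at 0 in all 6 libraries.

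Genes of the mitochondrial genome took a smaller share of the helium libraries than of the nitrogen libraries. The share was 3.63%, 4.05% and 3.57% of counts with helium and 5.17%, 6.29% and 4.06% with nitrogen. All helium shares lay below all nitrogen shares, although helium library 4 and nitrogen library 3 were close to each other. The means were 3.75% ± 0.260 and 5.17% ± 1.11 (SD, n = 3 each), a difference of -1.42 percentage points (exact permutation test over 20 splits, two-sided, p = 0.1, the smallest that 3 against 3 allows). Without nitrogen library 2 the difference was -0.865 percentage points, without nitrogen library 3 it was -1.98, and as a share of FPKM -2.20. The share in the deep nitrogen 6.6 M library was 2.41% (95% exact Clopper-Pearson interval 2.40 to 2.42, counting error only), lower than in any helium library of either concentration, while the shallow nitrogen 6.6 M libraries held 4.92% and 4.57%. Fresh libraries, all shallow, ranged from 4.14% to 8.66%. In the plot of mitochondrial share against depth, the 7 deep libraries lie between 2.41% and 4.21% and the 8 shallow ones between 4.06% and 8.66%. The part of depth in the mitochondrial share was not tested, since depth and coolant overlap in all but 1 library.

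More genes were detected with helium at equal depth. With every library thinned at random to 1790900 counts, the smallest total of the 6, a count was found for 11856, 11685 and 11428 genes with helium and for 10914, 10842 and 10807 with nitrogen. No helium library overlapped a nitrogen library. The means were 11656 ± 215 and 10854 ± 54.6 (SD, n = 3 each), a difference of 802 genes (p = 0.1 in a two-sided exact permutation test, again the smallest possible). The gap narrowed where more counts were asked for, to 257 genes at 5 or more thinned counts (exact permutation test, two-sided, p = 0.2), and without thinning it was 2229 genes. Thinning equalises the number of counts but not the number of distinct RNA molecules behind them, which the files do not give.

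**Figure D1:**
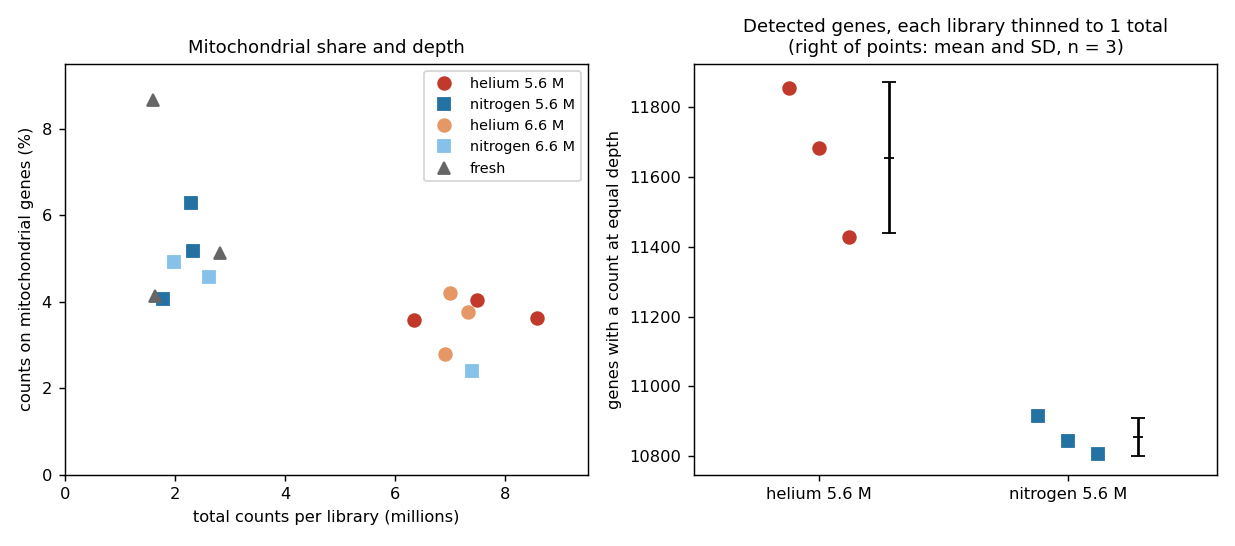
Left: the share of counts on mitochondrial genes (percent) against the total counts (in units of 1000000) of each of the 15 libraries, coloured by group. Right: genes with a count in the 6 libraries at 5.6 M after each was thinned to 1790900 counts, with the mean and SD of 3 libraries beside the points and an axis that does not start at 0. The deep nitrogen 6.6 M library has the lowest mitochondrial share, 2.41%, and all helium points on the right lie above the nitrogen points.

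At equal depth, 102 genes had a count in all 3 helium libraries and none in the 3 nitrogen libraries, against 21 the other way round. Before thinning, 15047 genes had a count in any of the 6 libraries. Of the 102, 90 also had no count in the nitrogen libraries before thinning, and of the 21, 2 had none in the helium libraries before thinning. Thinning took far more counts from the helium libraries than from the nitrogen libraries, so these last counts cannot be compared between the coolants. Among the 102, PI4K2A, a lipid kinase of endosomes, had 13, 13 and 26 counts with helium and 0 in each nitrogen library before thinning. It had 8, 5 and 14 counts with nitrogen at 6.6 M and 2, 5 and 6 in fresh oocytes. ATP10B, a lipid flippase gene, had 16, 12 and 16 counts against 0, 1 and 0. Among the 21, GK2, a testis-type glycerol kinase, had 1, 3 and 1 thinned counts with nitrogen and 1, 1 and 3 counts with helium before thinning. All of these counts were small. A count of 0 allows up to 3 counts per library, so these transcripts were not detectable at this depth, which does not show that they were absent.

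Across the transcriptome no gene separated the coolants past the threshold. In the quasi-likelihood test of edgeR, with p-values adjusted after Benjamini and Hochberg, 0 of 8441 genes passed an adjusted p of 0.05 (0%), and the smallest adjusted p was 0.0575. At an unadjusted p under 0.05 there were 803 genes, 379 higher with helium (4.49% of genes tested) and 424 lower (5.02%), 9.51% in all. The libraries of both groups did not overlap in 886 genes higher with helium (10.5%) and 962 lower (11.4%). Differences were mostly small: the log2 fold change, helium minus nitrogen throughout, lay within 0.5 of zero in 6812 genes (80.7%), reached 1 or more in 158 and -1 or less in 76, with a median SE of 0.29. Over all genes 4389 lay above zero and 4052 below, with a median of 0.02.

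DESeq2 called 48 of the same 8441 genes (0.569%), 6 higher and 42 lower with helium. An edgeR fit of the 6 libraries alone called 31 of 8598 (0.361%), 4 higher and 27 lower. They shared 22 genes, 45.8% of the DESeq2 calls and 71.0% of the others. In all 48 genes that DESeq2 called, the 3 helium libraries did not overlap the 3 nitrogen libraries. The calls were made on the same counts, so this is no independent check of them. Of its lower genes 42 of 42 had the same sign at 6.6 M, and of its higher genes 5 of 6, beside 66.7% of all tested genes. On simulated counts with the libraries' own depths, the edgeR fit of all 5 groups was tried on genes made to differ between the coolants. It found 45 of 50 genes made 4-fold higher with helium, 13 of 50 at 2-fold and 1 of 50 at 1.5-fold. Of 50 genes made 1.5-fold lower with helium it found 0, and it called 2 of 8241 unchanged genes. Larger decreases were not simulated. Differences of the size most genes showed were thus seldom called in simulation.

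The genes nearest to the threshold were lower with helium. NDUFA1, an accessory subunit of respiratory complex I, stood at 34.9, 28.9 and 42.6 CPM in the 3 helium libraries and at 62.7, 82.7 and 112 in the 3 nitrogen libraries (CPM of single genes carry edgeR's TMM scaling from here on). The groups did not overlap, and the nitrogen libraries spread more widely. Its log2 fold change was -1.27 (SE 0.24, edgeR adjusted p = 0.0612, DESeq2 adjusted p = 0.00086). The deep nitrogen 6.6 M library held 90.8 CPM of NDUFA1, above every helium library of the series, while the helium 6.6 M libraries held 33.1 to 36.0. Fresh oocytes held 49.7 ± 15.5 CPM of NDUFA1 and so lay nearer to helium, which was true of no other of the 11 lower genes reported under the rule.

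RNF145, a ubiquitin ligase of the endoplasmic reticulum that acts on cholesterol synthesis, stood at 45.7, 44.1 and 38.7 CPM with helium and at 84.3, 79.4 and 105 with nitrogen, again without overlap. The log2 fold change was -1.06 (SE 0.21, edgeR adjusted p = 0.0798, DESeq2 adjusted p = 0.00159). Fresh oocytes, at 90.4 ± 22.6 CPM, were at the nitrogen level. The deep nitrogen 6.6 M library held 63.2 CPM of RNF145, between the helium and the nitrogen libraries at 5.6 M.

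ND3, a core subunit of complex I encoded in the mitochondrion, stood at 80.4, 89.8 and 77.1 CPM with helium and at 213, 260 and 239 with nitrogen. This was a tight low group against a tight high group, with a log2 fold change of -1.53 (SE 0.33, edgeR adjusted p = 0.126, DESeq2 adjusted p = 0.00754). At 6.6 M the shallow nitrogen libraries held 224 and 198 CPM of ND3 and the deep one 100, close to helium at 77.1 to 91.5. Fresh libraries held 603, 196 and 223 CPM. All 7 deep libraries thus lay below all 8 shallow ones for ND3, and with depth class as a term its log2 fold change at 5.6 M was -0.45. Depth class varied within a group only in nitrogen at 6.6 M. Every value given with this term, here and below, therefore rests on the single deep library there and is not a replicated correction for depth.

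LARP7, which binds and protects the 7SK RNA that restrains transcription elongation, stood at 351, 312 and 318 CPM with helium and at 582, 614 and 713 with nitrogen. Its log2 fold change was -0.96 (SE 0.21, edgeR adjusted p = 0.126, DESeq2 adjusted p = 0.00715). All helium libraries were below all nitrogen libraries at both concentrations, the deep nitrogen library (526 CPM) included. HES1, a transcriptional repressor downstream of Notch receptors, stood at 68.4, 91.5 and 93.3 CPM against 192, 180 and 155, a log2 fold change of -1.06 (SE 0.25, edgeR adjusted p = 0.149, DESeq2 adjusted p = 0.0182). For HES1 the deep nitrogen library (102 CPM) was nearer to helium.

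SAP30L, a subunit of the Sin3 histone deacetylase complex, stood at 17.3, 15.8 and 19.8 CPM with helium and at 35.2, 27.4 and 49.9 with nitrogen (log2 fold change -1.08, SE 0.25, edgeR adjusted p = 0.141, DESeq2 adjusted p = 0.0109). RPL37, a protein of the large ribosomal subunit, stood at 12.1, 12.1 and 13.9 CPM against 25.4, 26.0 and 36.6 (log2 fold change -1.20, SE 0.25, edgeR adjusted p = 0.126, DESeq2 adjusted p = 0.00493). Neither gene overlapped between groups, and the deep nitrogen library held nitrogen-like levels of both, 35.4 CPM of SAP30L and 27.3 of RPL37. RPL37 has near-identical copies elsewhere in the genome, between which the authors' counting may have split reads, and the same caution holds for other ribosomal protein genes, for small nucleolar RNA genes and for mitochondrial genes.

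The remaining lower genes named by the rule were CCDC173 (86.0 ± 20.5 CPM with helium and 180 ± 16.1 with nitrogen), RIIAD1 (25.4 ± 4.40 and 51.8 ± 6.32), the H/ACA small nucleolar RNA gene SNORA20 (8.20 ± 0.600 and 17.1 ± 1.81) and C9orf40 (30.7 ± 1.46 and 61.9 ± 19.3). The log2 fold changes of the first 3 were -1.06, -1.03 and -1.06, and all 4 had DESeq2 adjusted p of 0.0117, 0.0101, 0.0178 and 0.0178. All 11 lower genes were called by DESeq2 and 8 by the fit of 6 libraries. Both fits reuse the counts by which the rule chose these genes, so their calls and adjusted p are no independent check. All 11 were also lower on average with helium at 6.6 M, where the libraries of 10 did not overlap. Of all tested genes, 66.7% had the same sign at 6.6 M as at 5.6 M. Of the 1848 genes without overlap at 5.6 M, 411 showed none at 6.6 M in the same direction. The deep nitrogen 6.6 M library lay nearer to the nitrogen level of 5.6 M in 8 of the 11 and nearer to helium in 3 (ND3, SNORA20 and HES1). It lay nearer to helium in 38.1% of all tested genes. Fresh oocytes lay nearer to nitrogen in 10.

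**Figure D2:**
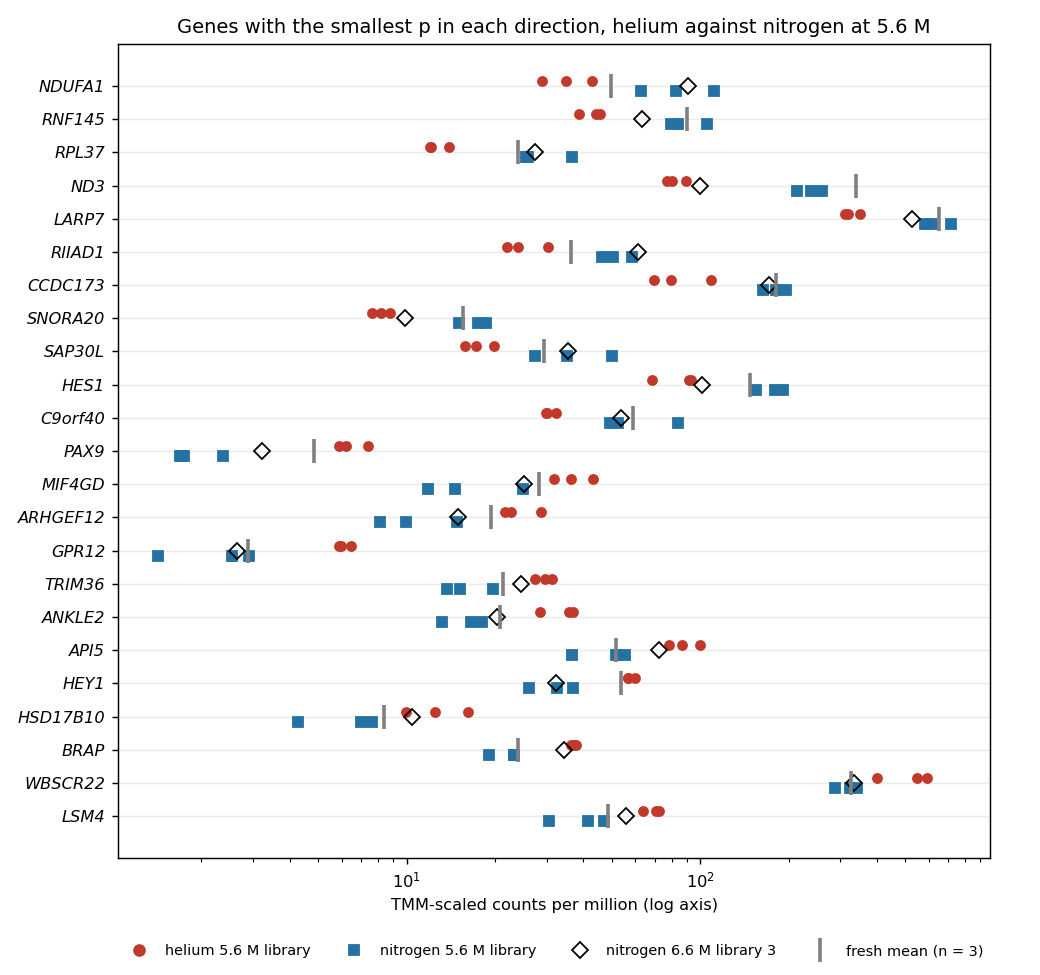
TMM-scaled CPM (log axis) of the 11 lower (upper rows) and 12 higher (lower rows) genes named by the rule, with 3 helium 5.6 M libraries (circles), 3 nitrogen 5.6 M libraries (squares), the deep nitrogen 6.6 M library (diamond) and the mean of 3 fresh libraries (bar). Circles and squares do not overlap in any row because the rule asked for this, and the diamond lies nearer to the circles in 3 lower and 6 higher genes.

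Among genes higher with helium, none came as near to the threshold. PAX9, a paired-box transcription factor, stood at 7.39, 6.22 and 5.88 CPM with helium and at 1.69, 2.36 and 1.74 with nitrogen, all low values. The log2 fold change was 1.74 (SE 0.43, edgeR adjusted p = 0.153, DESeq2 adjusted p = 0.113). Fresh oocytes held 4.83 ± 1.13 CPM of PAX9, nearer to helium, and the deep nitrogen 6.6 M library 3.21.

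MIF4GD, a partner of the stem-loop binding protein in the translation of histone mRNA, stood at 36.2, 43.0 and 31.9 CPM with helium and at 11.9, 14.7 and 24.96 with nitrogen (log2 fold change 1.13, SE 0.29, edgeR adjusted p = 0.166, DESeq2 adjusted p = 0.0315). ARHGEF12, a guanine nucleotide exchange factor, stood at 21.6, 22.7 and 28.8 CPM against 14.8, 9.93 and 8.13 (log2 fold change 1.13, SE 0.29, edgeR adjusted p = 0.166, DESeq2 adjusted p = 0.0485). TRIM36, a ubiquitin ligase, stood at 31.3, 29.7 and 27.3 CPM against 15.3, 13.7 and 19.7 (log2 fold change 0.87, SE 0.23, edgeR adjusted p = 0.208, DESeq2 adjusted p = 0.0485). These 3 were the higher genes named by the rule that DESeq2 called. At 6.6 M only MIF4GD of the 3 again showed no overlap between the coolants, while TRIM36 had a log2 fold change of -0.11 there.

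The rule also named GPR12, a receptor that raises cyclic AMP and is known from the meiotic arrest of oocytes, at 6.11 ± 0.320 CPM with helium and 2.29 ± 0.774 with nitrogen, both low values. Further genes were ANKLE2, which takes part in rebuilding the nuclear envelope after division (33.7 ± 4.54 and 15.9 ± 2.44), the apoptosis inhibitor gene API5 (88.1 ± 10.7 and 47.9 ± 9.97) and HEY1, like HES1 a repressor downstream of Notch (57.7 ± 1.85 and 31.9 ± 5.40). HEY1 and HES1 thus lay in opposite directions. HSD17B10, a mitochondrial dehydrogenase that is also part of mitochondrial ribonuclease P, stood at 12.9 ± 3.13 and 6.28 ± 1.79 CPM. BRAP, a ubiquitin ligase of the cytoplasm, stood at 37.1 ± 0.640 and 21.8 ± 2.39, WBSCR22, a methyltransferase of ribosomal RNA, at 514 ± 101 and 318 ± 27.7, and LSM4, of the ring that binds U6 RNA and decaying mRNA, at 69.0 ± 4.71 and 39.7 ± 8.43. The edgeR adjusted p of these 8 genes ran from 0.203 for GPR12 to 0.29 for LSM4.

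At 6.6 M 9 of the 12 higher genes again had the higher mean with helium, and 4 (MIF4GD, GPR12, HSD17B10 and LSM4) showed no overlap. These counts are to be read beside 66.7% of all tested genes with the same sign, and 411 of 1848 without overlap at both concentrations. The deep nitrogen library lay nearer to the helium level of 5.6 M in 6 of the 12, against 38.1% of all tested genes, and fresh oocytes lay nearer to nitrogen in 8. The log2 fold change of each of the 23 genes named by level and separation kept its sign in all settings run, but not its size. With depth class as a term ND3, HES1 and SNORA20 had -0.45, -0.51 and -0.67, RIIAD1 had -1.78 and HEY1 had 1.37.

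On the UMD3.1 build, per the deposited table, NDUFA1 (ENSBTAG00000006033) spans 4068880 to 4072037 on chromosome X and RNF145 (ENSBTAG00000025099) 72843640 to 72906344 on 7. ND3 (ENSBTAG00000043568) spans 9823 to 10168 of the mitochondrial genome, LARP7 (ENSBTAG00000009632) 14136250 to 14171143 on chromosome 6 and HES1 (ENSBTAG00000000569) 73973533 to 73976720 on 1. PAX9 (ENSBTAG00000009186) spans 47292474 to 47306417 on chromosome 21 and MIF4GD (ENSBTAG00000030168) 56855652 to 56859258 on 19. The values are counts over whole genes, so no exon or untranslated region can be singled out.

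Of the 48 genes that DESeq2 called, 18 had no symbol in the table. ENSBTAG00000015156, at 178 CPM with helium and 433 with nitrogen, and ENSBTAG00000012898, at 38.0 and 77.1, had the smallest DESeq2 adjusted p (2.93e-05 each). Further genes with symbols, chosen after their values were seen, were SON, a scaffold of nuclear speckles that aids splicing (258 ± 27.4 CPM with helium, 537 ± 124 with nitrogen, DESeq2 adjusted p = 0.0209), and NSRP1, another speckle protein (172 ± 16.0 and 297 ± 42.0, DESeq2 adjusted p = 0.0245). LYRM7, an assembly factor of respiratory complex III, stood at 11.5 ± 4.52 and 25.5 ± 2.81 CPM (DESeq2 adjusted p = 0.0396). All of these were lower with helium at 6.6 M as well, by -1.13, -0.59, -0.83, -0.53 and -1.17 on the log2 scale in the order given.

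Gene lists were described next by the number of members on each side of zero and by their median log2 fold change. No member of any of the 28 lists passed the edgeR threshold, so the counts below describe levels and not calls, to be read beside 52.0% of all tested genes above zero, a median of 0.02, and 4.49% higher and 5.02% lower at an unadjusted p under 0.05. Counts of genes without overlap are to be read beside 10.5% of all tested genes higher and 11.4% lower.

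All 11 mitochondrially encoded protein genes in the table, which specify core subunits of the respiratory chain and of ATP synthase, were lower on average with helium, with a median of -0.85 that became 0.37 with depth class as a term and -0.54 without nitrogen library 2. In 8 of the 11 the libraries did not overlap, and 4 had an unadjusted p under 0.05. Beside ND3, ATP8, a subunit of ATP synthase, stood at 294, 279 and 214 CPM with helium and at 512, 886 and 404 with nitrogen (log2 fold change -1.20, SE 0.38, edgeR adjusted p = 0.334). ND2, of complex I, stood at 1738, 1666 and 1535 CPM against 2957, 3585 and 2564 (log2 fold change -0.88, SE 0.35, edgeR adjusted p = 0.432), and ND6, of the same complex, at 368, 476 and 424 against 681, 886 and 861. In these genes the deep nitrogen 6.6 M library held 208, 1323 and 297 CPM, at or below the helium libraries of 5.6 M. COX3, a subunit of cytochrome oxidase, showed the least separation, with 4799, 5394 and 5429 CPM against 5768, 9834 and 4213. ATP6 stood at 5544 and 5828 CPM in helium libraries 3 and 4 but at 1423 in library 5. Helium library 5 was near its group in the other genes named here. Fresh library 2 was also low in ATP6, at 1170 CPM against 15268 and 11207, and was the lowest fresh library in each of the 11 genes. The median of the list at 6.6 M was -0.26, and the part of depth in these values was not tested.

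**Figure D3:**
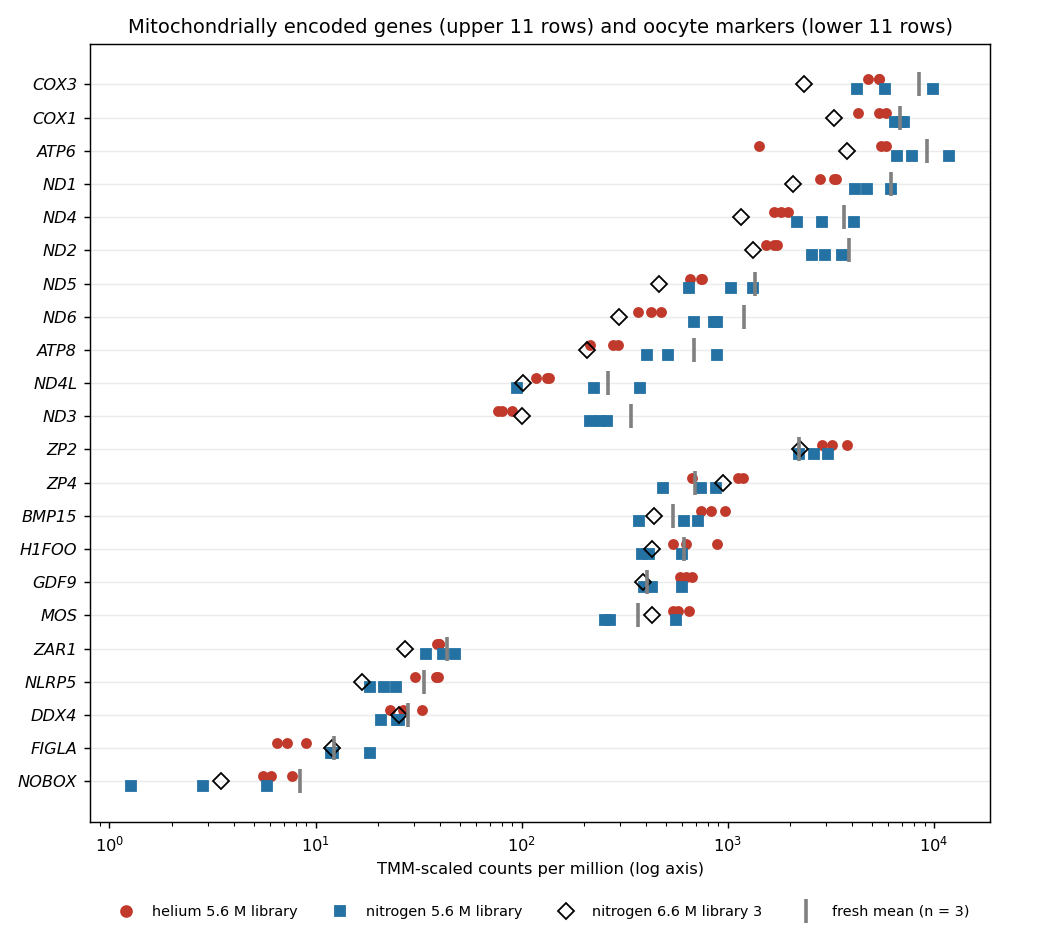
TMM-scaled CPM (log axis) of the 11 mitochondrially encoded genes and the 11 oocyte markers in the 3 helium 5.6 M libraries (circles), the 3 nitrogen 5.6 M libraries (squares), the deep nitrogen 6.6 M library (diamond) and the mean of 3 fresh libraries (bar). Most mitochondrial circles lie left of the squares with the diamond left of the circles except in ATP6 and ND3, while ZP2, BMP15, GDF9 and NLRP5 circles lie mostly right of the squares with the diamond at the low end.

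Nuclear genes of oxidative phosphorylation were also mostly lower with helium. Of 55 tested, 40 lay below zero and 15 above, with a median of -0.21. It was -0.51 with depth class as a term and -0.10 with limma on log2 FPKM, and below zero in all 16 settings. An unadjusted p under 0.05 was reached by 13 lower and 1 higher, and 19 were lower without overlap. The summed level of the list was 4949, 4455 and 4723 plain CPM with helium and 5597, 5983 and 5689 with nitrogen, so the groups stood apart. It was 6564 in the deep nitrogen 6.6 M library, 5144 and 5472 in the shallow ones, 4360 to 5713 with helium at 6.6 M and 4686 to 4879 in fresh oocytes, which were thus near helium. NDUFB6, of complex I, stood at 431, 389 and 460 CPM with helium and at 637, 778 and 659 with nitrogen (log2 fold change -0.70, SE 0.21, edgeR adjusted p = 0.29). NDUFA12, of the same complex, stood at 6.31, 5.83 and 8.33 CPM against 14.8, 13.2 and 16.3 (log2 fold change -1.11, SE 0.27, edgeR adjusted p = 0.153, DESeq2 adjusted p = 0.0326). At 6.6 M the median of the list was 0.02, so the list as a whole showed no such shift there, although NDUFA1, NDUFB6 and NDUFA12 were again lower without overlap.

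Short genes made up much of that list, and transcript length went with the coolant in the whole table. Genes were ranked by the length that their deposited counts and FPKM imply and cut into 4 classes of like size. In the shortest class (up to 1299 bases), 82 genes were higher and 222 lower with helium at an unadjusted p under 0.05. The median log2 fold change of that class was -0.06. In the longest class (3076 bases or more), 127 were higher and 57 lower, with a median of 0.07. The middle classes had medians of 0.03 each. Of the 55 nuclear respiratory genes, 43 were in the shortest class, with a median of -0.26, while the other 12 had a median of 0.05. Expression level showed a slope as well, from a median of 0.12 in the class of lowest mean CPM to -0.07 in the highest, of 4 such classes. In the same expression classes the medians at 6.6 M ran from 0.22 in the lowest to -0.14 in the highest, so this slope was found there too. At 6.6 M the shortest class had a median of 0.01 and the longest -0.05, so the order of lengths was not the same. The part of transcript length in the list results was not tested.

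Ribosomal protein genes, most of them short, lay on the same side. Of 41 cytosolic ones, all in the shortest length class, 30 lay below zero and 11 above (median -0.20, -0.92 with depth class as a term and -0.12 with limma on log2 FPKM), and 6 were lower and 0 higher at an unadjusted p under 0.05. RPS28 of the small subunit stood at 19.0, 23.7 and 33.3 CPM with helium and at 46.2, 42.1 and 44.1 with nitrogen (log2 fold change -0.80, SE 0.24, edgeR adjusted p = 0.29). RPS20 stood at 64.5 ± 6.85 and 93.8 ± 7.17 CPM. The sum over the list overlapped between coolants, at 3092 to 3172 plain CPM with helium and 2759 to 3495 with nitrogen. Of 66 mitochondrial ribosomal protein genes 43 lay below zero (median -0.09, -0.39 with depth class as a term, though 0.01 with limma on log2 FPKM), with MRPS18C at 132 ± 14.9 CPM with helium and 213 ± 31.2 with nitrogen, and MRPS11 the other way at 20.7 ± 3.26 and 12.03 ± 0.963. The medians at 6.6 M were -0.03 and 0.08.

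**Figure D4:**
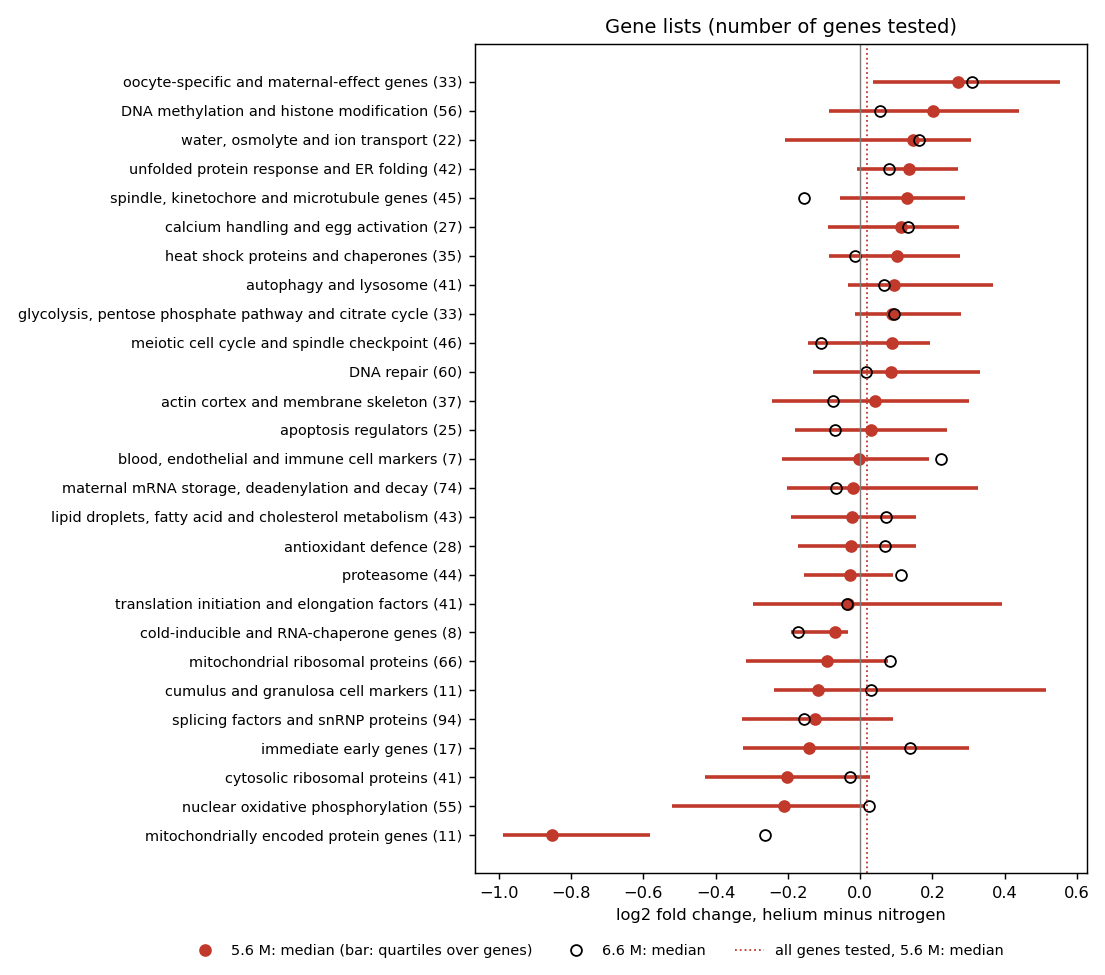
Median log2 fold change, helium minus nitrogen, over the tested genes of 27 lists at 5.6 M (filled circles, with bars for the quartiles over genes) and at 6.6 M (open circles), with the median of all tested genes at 5.6 M as a dotted line. The mitochondrially encoded genes stand lowest, at -0.85, and the oocyte-specific genes highest, at 0.27. The bars of most lists span zero.

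Splicing genes formed the largest list with a shift to lower levels in helium. Of 94 splicing factors and proteins of small nuclear ribonucleoproteins, 61 lay below zero and 33 above, with a median of -0.12 (-0.16 at 6.6 M) that became 0.07 with depth class as a term, -0.06 without helium library 4 and -0.02 with limma on log2 FPKM. At an unadjusted p under 0.05 there were 19 lower and 3 higher. Of the 94, 32 were in the shortest length class, with a median of -0.33, and the other 62 had a median of -0.07. HNRNPL, a regulator of alternative splicing, stood at 62.9, 59.9 and 46.2 CPM with helium and at 79.2, 87.5 and 133 with nitrogen (log2 fold change -0.82, SE 0.21, edgeR adjusted p = 0.173, DESeq2 adjusted p = 0.0326). SNRPG (ENSBTAG00000038368, 1 of 2 genes of that symbol tested), part of the Sm ring of these particles, stood at 265, 232 and 331 CPM against 445, 509 and 452 (log2 fold change -0.76, SE 0.22, edgeR adjusted p = 0.275). The groups stood apart for both genes at both concentrations. The deep nitrogen library held 97.5 CPM of HNRNPL and 495 of SNRPG, within the nitrogen range of 5.6 M. The summed level of the list was 17985, 17641 and 18765 plain CPM with helium and 20593, 19696 and 21943 with nitrogen, and 20218 in the deep nitrogen library. Fresh oocytes ranged from 17274 to 19940.

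Genes that store, translate and destroy maternal mRNA lay on both sides. Of 74 storage, deadenylation and decay genes 36 lay above zero and 38 below (median -0.02, with the sign turning in 8 of 16 settings). BTG1, a partner of the CCR4-NOT deadenylase, stood at 70.6, 72.2 and 62.1 CPM with helium and at 128, 90.3 and 105 with nitrogen (log2 fold change -0.66, SE 0.19, edgeR adjusted p = 0.258). G3BP2, a stress granule protein, stood the other way at 94.5 ± 15.6 and 61.4 ± 1.15, and CPEB3, which controls polyadenylation in the cytoplasm, at 79.0 ± 3.40 and 106 ± 12.9. BTG4, the oocyte's deadenylation adaptor and the gene of highest FPKM in these libraries, stood at 31661 ± 5068 FPKM (fragment counts scaled to gene length and library total) with helium and 36072 ± 3804 with nitrogen, a difference within the spread. Of 41 translation factors 18 lay above and 23 below zero (median -0.03, sign turning in 7 of 16 settings). EIF5B, which joins the ribosomal subunits, stood at 1528, 1482 and 1483 CPM against 2130, 2036 and 3049 (log2 fold change -0.68, SE 0.22, edgeR adjusted p = 0.339), and EIF3I at 32.0 ± 1.19 against 20.6 ± 0.836.

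Oocyte-specific and maternal-effect genes stood higher with helium in most cases. Of 33 tested, 25 lay above zero and 8 below, with a median of 0.27 (0.31 at 6.6 M). The median was 0.61 with depth class as a term and 0.16 without nitrogen library 1, and above zero in all 16 settings. Still, only 4 were higher and 1 lower at an unadjusted p under 0.05, and 7 were higher without overlap. WEE2, the oocyte kinase that holds CDK1 in check, stood at 462, 501 and 483 CPM with helium and at 316, 323 and 284 with nitrogen (log2 fold change 0.65, SE 0.21, edgeR adjusted p = 0.342). UCHL1, an abundant deubiquitinating enzyme of oocytes, stood at 449 ± 46.8 and 313 ± 34.6 CPM. The growth factor gene BMP15 stood at 737, 825 and 970 CPM against 613, 719 and 369 (log2 fold change 0.57, SE 0.27, edgeR adjusted p = 0.52), and its partner GDF9 at 589, 625 and 668 against 427, 598 and 390, where nitrogen library 2 reached into the helium range. The deep nitrogen library held 440 CPM of BMP15 and 386 of GDF9, on the nitrogen side. FIGLA, a transcription factor that drives zona pellucida genes, stood against the trend at 9.03, 7.26 and 6.53 CPM with helium and 11.9, 18.4 and 12.2 with nitrogen (log2 fold change -0.89, SE 0.33, edgeR adjusted p = 0.415), and its log2 fold change at 6.6 M was 0.79. The summed level of the whole list, which BTG4 dominates, overlapped between the coolants, at 33620 to 41192 plain CPM with helium and 34009 to 40290 with nitrogen.

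Spindle and cortex genes followed. Of 45 genes of the spindle, kinetochore and microtubules 32 lay above zero and 13 below, with a median of 0.13 in these libraries (0.21 with limma on log2 FPKM) and of -0.16 at 6.6 M, and 5 were higher and 0 lower at an unadjusted p under 0.05. NEK2, a centrosome kinase, stood at 117, 103 and 97.5 CPM with helium and at 70.3, 71.4 and 60.4 with nitrogen (log2 fold change 0.65, SE 0.20, edgeR adjusted p = 0.322). CLASP1, which stabilises microtubule ends at kinetochores, and PMF1, of the MIS12 kinetochore complex, stood at 5.13 ± 0.715 and 6.41 ± 0.801 CPM with helium and at 1.65 ± 0.762 and 2.55 ± 2.09 with nitrogen, all low values. EZR, the ezrin that ties membrane to cortical actin, stood at 2481, 3424 and 3520 CPM against 2027, 1870 and 2317 (log2 fold change 0.60, SE 0.24, edgeR adjusted p = 0.455). Helium 5.6 M library 3 was the lowest of its group for EZR yet above the nitrogen libraries, and the deep nitrogen library held 1909. Over the 37 cortex genes 20 lay above zero and 17 below (median 0.04, sign turning in 4 of 16 settings). Of 46 genes of the meiotic cell cycle 27 lay above zero (median 0.09, but -0.11 at 6.6 M), with the arrest-related phosphodiesterase gene PDE3A at 21.5 ± 5.28 CPM with helium and 12.5 ± 3.12 with nitrogen, and CDC26, a subunit of the anaphase-promoting complex, at 276 ± 13.03 and 432 ± 45.8.

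Stress genes showed no common shift. Among 35 heat shock proteins and chaperones 21 lay above zero (median 0.10, -0.01 at 6.6 M), with 1 higher and 2 lower at an unadjusted p under 0.05. HSPE1, the mitochondrial co-chaperonin, stood at 326, 325 and 431 CPM with helium and at 446, 487 and 530 with nitrogen (log2 fold change -0.43, SE 0.18, edgeR adjusted p = 0.477), and HSPA4L at 196 ± 40.7 and 134 ± 28.9. Cold-inducible and RNA-chaperone genes, the list nearest to the treatment by name, held 8 tested genes, of which 2 lay above and 6 below zero (median -0.07, sign turning in 3 of 16 settings), and only the splicing factor gene SRSF2, at 52.6 ± 3.03 and 68.8 ± 3.09 CPM, had an unadjusted p under 0.05. Of 28 antioxidant genes 13 lay above and 15 below zero (median -0.02, sign turning in 5 of 16 settings). The 3 with an unadjusted p under 0.05 were all lower with helium, GCLM of glutathione synthesis (15.9 ± 2.13 and 24.9 ± 2.56 CPM), thioredoxin TXN (24.6 ± 5.19 and 42.2 ± 16.1) and the peroxidase GPX8 (29.1 ± 5.47 and 43.7 ± 8.82). For TXN nitrogen library 1, at 60.1 CPM, stood far above nitrogen libraries 2 and 3 at 37.3 and 29.0, and without it the log2 fold change was -0.47.

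Genes of protein folding and export in the endoplasmic reticulum held some of the wider gaps. Of 42 genes 29 lay above zero, with a median of 0.13 (0.08 at 6.6 M), although 2 were higher and 2 lower at an unadjusted p under 0.05. SEC62, of the translocation channel, stood at 327, 327 and 393 CPM with helium and at 583, 564 and 813 with nitrogen (log2 fold change -0.90, SE 0.22, edgeR adjusted p = 0.153, DESeq2 adjusted p = 0.021). SEC61G of the same channel stood at 298, 259 and 339 CPM against 396, 508 and 564 (log2 fold change -0.71, SE 0.23, edgeR adjusted p = 0.334). The deep nitrogen library held 662 CPM of SEC62 and 702 of SEC61G, above every helium library. UGGT1, the folding sensor that reglucosylates misfolded glycoproteins, stood the other way at 8.48, 6.87 and 13.2 CPM against 3.39, 2.36 and 3.48 (log2 fold change 1.62, SE 0.44, edgeR adjusted p = 0.214), but its log2 fold change at 6.6 M was -0.04. The nitrogen values of UGGT1 were low.

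Apoptosis regulators were balanced, with 13 of 25 above zero (median 0.03, sign turning in 3 of 16 settings), and 1 of them, PDCD10, had an unadjusted p under 0.05. Calcium and egg activation genes had 16 of 27 above zero (median 0.11), with ITPR1, the calcium release channel, at 40.2 ± 5.29 CPM with helium and 27.6 ± 7.24 with nitrogen, and PPP3CA, the catalytic subunit of calcineurin, at 7.97 ± 2.25 and 14.2 ± 1.79. PPP3CA was the more alike across concentrations, with a log2 fold change of -0.83 here and -1.09 at 6.6 M. Of 22 genes for water, osmolyte and ion transport, through which cryoprotectant and water move, 13 lay above zero (median 0.15, sign turning in 1 of 16 settings) and none had an unadjusted p under 0.05 by edgeR. Genes of glycolysis, pentose phosphate reactions and the citrate cycle had 24 of 33 above zero (median 0.09 at both concentrations) and again none with an unadjusted p under 0.05.

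Lipid genes were split, with 20 of 43 above zero (median -0.02, sign turning in 4 of 16 settings). PLIN2, the coat protein of lipid droplets, stood at 303, 302 and 310 CPM with helium and at 225, 204 and 196 with nitrogen (log2 fold change 0.55, SE 0.19, edgeR adjusted p = 0.362). The helium libraries were nearly equal and lay above all nitrogen libraries, and the deep nitrogen library held 192. PPARG, a lipid-sensing nuclear receptor, stood at 48.4 ± 5.27 and 30.4 ± 3.14 CPM, and ELOVL5, which lengthens polyunsaturated fatty acids, the other way at 93.4 ± 5.26 and 145 ± 38.9. PLIN2 and ELOVL5 showed no overlap at 6.6 M either.

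DNA methylation and histone modification genes lay mostly above zero, 38 of 56 with a median of 0.20 (0.05 at 6.6 M, and at 5.6 M 0.40 with depth class as a term and 0.13 without nitrogen library 2). Without overlap 11 were higher and 5 lower, beside 10.5% and 11.4% of all tested genes. At an unadjusted p under 0.05 by edgeR only 3 were higher and 2 lower. TET2, which oxidises methylcytosine, stood at 17.8, 19.3 and 20.3 CPM with helium and at 14.4, 10.4 and 9.29 with nitrogen (log2 fold change 0.74, SE 0.27, edgeR adjusted p = 0.391), and SIRT5, a mitochondrial deacylase, at 5.45 ± 0.199 and 2.67 ± 0.906. The values of SIRT5 were low. SAP30L, described above, was the member with the smallest p and lay on the lower side. DNA repair genes had 35 of 60 above zero (median 0.08), with XRCC6, the Ku70 end-binding protein, at 52.6 ± 11.8 and 32.2 ± 8.02 CPM. Autophagy and lysosome genes had 27 of 41 above zero (median 0.09), with the mitophagy receptor gene BNIP3 at 50.2 ± 9.86 and 34.3 ± 2.29. Proteasome genes had 20 of 44 above zero (median -0.03, sign turning in 3 of 16 settings) and immediate early genes 6 of 17 (median -0.14, but 0.48 with depth class as a term and 0.14 at 6.6 M). Over the settings run, the median at 5.6 M ranged from 0.05 to 0.31 for heat shock proteins and chaperones and from 0.07 to 0.30 for protein folding in the endoplasmic reticulum. It ranged from 0.01 to 0.23 for calcium genes, from 0.02 to 0.26 for glycolysis and its branches, and from 0.02 to 0.17 for the meiotic cell cycle. For DNA repair it ranged from 0.01 to 0.20 and for autophagy from 0.07 to 0.22.

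Among the genes of highest level per length, some differed little between the coolants and others stood lower with helium. CKS1B, a partner of cyclin-dependent kinases, stood at 21709 ± 2040 FPKM with helium and 20801 ± 2276 with nitrogen, and the related CKS2 at 7030 ± 1318 and 8050 ± 1528. Calmodulin gene CALM2 (ENSBTAG00000025644, 1 of 2 genes of that symbol tested) stood at 3944 ± 454 and 3913 ± 1109 FPKM. Of the nuclear genes among the 10 highest, CETN3, a centrin (6750 ± 404 and 9191 ± 305), and TMSB4X, which sequesters actin monomers (3179 ± 91.2 and 4335 ± 190), were lower with helium in all 3 libraries, with TMM-based log2 fold changes of -0.53 (SE 0.32) and -0.53 (SE 0.27) and edgeR adjusted p of 0.61 and 0.554.

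The coolant difference at 5.6 M was then set beside that at 6.6 M, which rests on other libraries. Over 8441 genes the log2 fold changes correlated with a Pearson coefficient of 0.48 and a Spearman coefficient of 0.45, across genes that are not independent replicates and between comparisons that share the tilt of depth towards helium. Of the 803 genes with an unadjusted p under 0.05 at 5.6 M, 685 (85.3%) had the same sign at 6.6 M, against 66.7% of all genes. Both unadjusted p were under 0.05 in 209 genes of 1 direction and in 3 of opposite direction, and 411 genes stood apart at both concentrations in 1 direction against 18 in opposite ones. The interaction of coolant and concentration was called in 0 genes by edgeR (177 at an unadjusted p under 0.05), and the comparison at 6.6 M itself in 0 (0%), with 678 at an unadjusted p under 0.05 and 8 calls by DESeq2. NDUFA1 and RPL37 had log2 fold changes of -1.24 and -1.10 at 6.6 M, near those at 5.6 M. BRAP, API5 and TRIM36 had -0.21, -0.10 and -0.11 there against 0.77, 0.87 and 0.87 here.

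**Figure D5:**
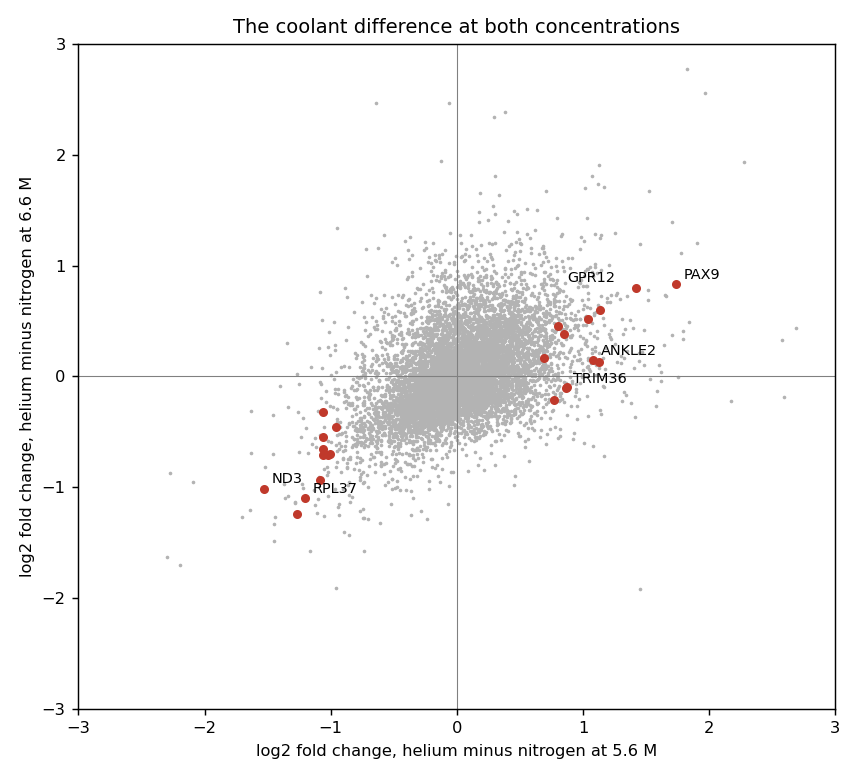
Log2 fold change, helium minus nitrogen, of each tested gene at 5.6 M (horizontal) and at 6.6 M (vertical), with 23 genes named by the rule in red and 8 genes beyond 3 on either axis not drawn. The red points of the 11 lower genes all lie at the lower left, and 9 of the 12 higher ones lie in the upper right.

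The deep nitrogen 6.6 M library allowed a look at helium and nitrogen at like depth. Of the 803 genes, 671 (83.6%) had the same sign as at 5.6 M when the helium 6.6 M libraries were set against this library, against 67.3% of all genes. With the shallow nitrogen 6.6 M libraries in its place, 608 (75.7%) did, against 59.4% of all genes. The difference between the deep and the shallow nitrogen libraries themselves, where depth differs and coolant does not, had the sign of helium minus nitrogen at 5.6 M in 248 (30.9%), against 38.0% of all genes. The level of the deep library lay nearer to helium 5.6 M than to nitrogen 5.6 M in 219 of the 803 (27.3%), and in 38.1% of all genes. By direction it was 34.6% of the 379 higher genes, near the share of all genes, and 20.8% of the 424 lower ones. The same sign against the deep library was found in 77.8% of the higher and 88.7% of the lower genes. Against the shallow libraries it was found in 65.4% and 84.9%. The deep library is subtracted where helium 6.6 M is set against it and added where it is set against the shallow nitrogen libraries. The shares of 83.6% and 30.9% are therefore not independent of each other. All shares that use the deep library come from 1 library, have no replicate check and are given as a description. ND3 was among the 219.

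Same-coolant libraries were somewhat more alike than libraries of different coolant only in helium. At equal depth, Pearson's r of log expression over 10939 genes was 0.964 to 0.966 between helium libraries, 0.945 to 0.959 between nitrogen libraries and 0.945 to 0.959 between the coolants. The biological coefficient of variation at equal depth was 0.144 with helium and 0.199 with nitrogen, and 0.309 in fresh oocytes. Nitrogen libraries thus differed among themselves as much as they differed from helium libraries by this measure.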

How the data were processed

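The table held, for 24616 genes and 15 libraries, a read count and an FPKM value per gene, as deposited by the authors. The counts were deposited as whole numbers without scaling, and the deposited FPKM equal a gene's count over its length times the library's total. HISAT2 2.0.4 and StringTie 1.3.0 and the build UMD3.1 are named, per the submitters' processing notes. Read filters, the treatment of multi-mapping reads and the strand of counting are not given in these sources. Unused value columns numbered 0.

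Counts were tested in R 4.3.3 with edgeR 4.0.16 (filterByExpr, which kept 8441 genes, TMM scaling, robust quasi-likelihood fit of all 5 groups, Benjamini-Hochberg adjustment at 0.05). Alternatives were DESeq2 1.42.0, limma 3.58.1 on log2(FPKM + 1), other scalings and filters, a depth class term (above or below 5000000 counts), thinning by random subsampling without replacement (seed 20), and leaving out each library. Intervals cover counting error only. The fit was tested on simulated data. Single values were compared by exact permutation tests over libraries.

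Named genes had a symbol, a mean FPKM of 5 or more where higher, no overlap between the 3 and 3 libraries and the smallest p, 12 in each direction, of which 1 lower gene is not reported here. In addition the text names up to 3 members of each list with the smallest p, up to 5 genes detected with 1 coolant only and the 10 genes of highest FPKM. The comparison and the lists were chosen with earlier results of these data known. Libraries 3 to 5 of helium and 1 to 3 of nitrogen have numbers from the labels.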

Additional observations from a re-analysis of the deposited data

How the results depend on the processing

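No paired analysis was possible because the groups at 5.6 M share only 1 replicate number, and at 6.6 M a fit with the replicate block called 4 genes against 0 without it. The shared numbers are labels only. For helium against nitrogen at 5.6 M the count of 0 called genes became 61 with no filter on low counts, 48 with DESeq2, 31 with only the 6 libraries compared, 3 with limma on log2(FPKM + 1), 2 with depth class as a term, and 1 each with upper-quartile scaling, a mean of at least 5 CPM, and thinning to one total. It was 0 without each library in turn. At 6.6 M the count of 0 became 67 with no filter, 8 with DESeq2 and 3 with depth class as a term, and it ranged from 0 to 1 over the fits that leave out 1 library, with 1 without nitrogen library 3. The interaction gave 2 genes with no filter. The cause of these differences was not tested.

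The gap of 802 detected genes was 2229 in the libraries as deposited, 257 at 5 or more thinned counts and 351.7 at 1 FPKM or more. The difference in the cumulus and granulosa marker sum, -2.97 CPM, ranged from -19.99 to 6.55 over the fits that leave out 1 library, with 4.53 without helium library 4, 6.55 without helium library 5 and 0.336 without nitrogen library 3. The depth of the nitrogen libraries limits what can be seen of low genes.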
